A study of Drosophila melanogaster with 16 samples.

Results

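The tRNA genes of Drosophila melanogaster were followed by the amino acid and anticodon of their product in an ATAC-seq comparison of fat body at 25 °C and 11 °C. All 295 nuclear genes whose RefSeq symbol starts with tRNA: were taken, 5 of them annotated as pseudogenes, and a peak was assigned to a gene when its midpoint lay in the gene or within 500 bp of it. In this way 175 of the 295 genes had a peak, at 114 of the 8069 peaks in the authors' deposited table. The peaks were chosen by position, and the comparison of temperatures below is the one the selection was made for, so its values are a description of these peaks and carry no test of this work.

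In ATAC-seq a transposase cuts open chromatin and its fragments are sequenced, so the read number in a peak measures accessibility. The tissue was fat body, the fly's organ of fat and glycogen storage, dissected from w1118 virgin females. Newly eclosed flies, reared at 25 °C, stayed at 25 °C or moved to 11 °C for 25 days; cold of that kind induces diapause, an arrest of reproduction with small ovaries. Every 2 days they received a vapour from 10 µL of 99% ethanol, alone or with 39.4 mM of the juvenile hormone analog S-methoprene, and the resulting 4 groups had 4 libraries each, with 25 flies pooled in a library. Only flies with the ovary state looked for were dissected: regressed at 11 °C with ethanol, large in the other 3 groups. The table analysed sets the temperatures against each other with no column for the vapour, so the cold itself and the state of the ovaries cannot be told apart in it. It gives 1 mean per temperature and no value per library, so no spread between replicates can be set beside a difference. The overall mean of each peak weighs 25 °C by 0.429, as 3 libraries against 4, or 6 against 8, would give. Which libraries entered is not stated, depth per library is unknown, and the flies picked by ovary limit both groups as a model of temperature alone.

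A tRNA carries an amino acid to the ribosome and reads a codon through its anticodon. Its gene is transcribed by RNA polymerase III from promoter elements inside the gene itself, the A box and the B box, which the factor TFIIIC binds before TFIIIB recruits the polymerase. The pathway follows nutrition: in Drosophila larvae, TOR signalling promotes tRNA synthesis by restraining the repressor Maf1, and Brf, a TFIIIB subunit, is needed for growth. The symbol of a fly tRNA gene gives the amino acid, the anticodon, a number for the isodecoder (genes with the same mature sequence) and a number for the copy, so tRNA:Gly-GCC-1-7 is the copy 7 of isodecoder 1 of glycine tRNA with anticodon GCC.

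Most tRNA peaks had more reads at 25 °C. The difference of log2 mean normalised reads, 25 °C minus 11 °C, was above 0 in 96 of the 114 peaks, with a median of 0.20 (1.15-fold) and quartiles of 0.09 and 0.47. The median of the fitted fold changes for the same peaks in the authors' deposited table is smaller, 0.12. Over all 8069 peaks it was above 0 in 3755, with a median of -0.02 and quartiles of -0.17 and 0.16. By the authors' deposited table, 41 tRNA peaks were more accessible at 25 °C at a false discovery rate (FDR) under 0.05, which is 36.0% of them, and 12.2% of all peaks were called in that direction. A single tRNA peak was called higher at 11 °C, against 10.0% of all peaks. The 41 peaks lie at 59 tRNA genes for 17 amino acids. With an FDR under 0.01 there were 32 tRNA peaks at 25 °C (8.55% of all peaks) and 1 at 11 °C (6.35%), and with an FDR under 0.1 there were 46 (14.1%) and 1 (12.7%). Since the selection was made for this contrast, nothing is read from the shares. Differences of at least 2-fold numbered 10 among tRNA peaks, all towards 25 °C, while among all peaks 168 lay towards 25 °C and 70 towards 11 °C. Of the 72 tRNA peaks without a call, 55 had more reads at 25 °C, with a range of log2 differences from -0.32 to 0.77 and a median of 0.12.

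**Figure D1:**
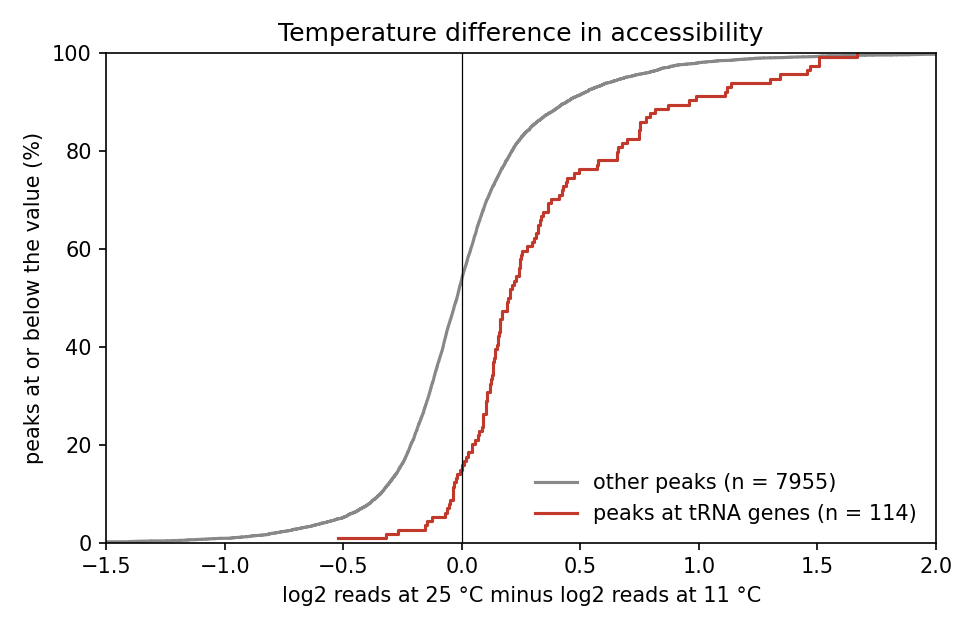
Share of peaks (vertical axis, %) at or below each difference of log2 mean normalised reads, 25 °C minus 11 °C (horizontal axis), for the 114 peaks at tRNA genes in red and the 7955 other peaks in grey; a few other peaks lie outside the plotted range. The red curve lies to the right of the grey one, with medians of 0.20 and -0.02.

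The largest difference of log2 means was at tRNA:Val-CAC-2-1 (3R, 7451339 to 7451739, dm6), a valine tRNA gene. It held a mean of 75.4 normalised reads at 25 °C and 23.8 at 11 °C, a log2 difference of 1.67. The authors' deposited table gives it a fitted log2 fold change of 1.11 with an FDR of 0.00102. The end of the microRNA gene mir-4950 lies 4 bp from its midpoint and the tRNA gene 170 bp. This peak therefore cannot be assigned to the tRNA gene alone. A second copy of the same valine isodecoder, tRNA:Val-CAC-2-5 (3R, 19671675 to 19672075), had 372 reads at 25 °C and 131 at 11 °C. Its fold change of 1.46 in the authors' deposited table came with an FDR of 2.16e-36, and by p-value the peak is number 6 of the 8069. The tRNA gene lies 402 bp from the peak's midpoint and within Naam, a nicotinamidase gene whose end lies 425 bp from it, so the peak cannot be assigned to the tRNA gene alone. The third copy with a peak, tRNA:Val-CAC-2-3, showed next to no difference, with 152 reads at 25 °C and 149 at 11 °C.

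Next in size came peaks whose midpoints had no end of another gene within 500 bp, except that at tRNA:Phe-GAA-1-8. The peak of tRNA:Gly-GCC-1-7 and tRNA:Gly-GCC-2-1 (2L, 14530484 to 14530884), which encode glycine tRNAs, held 136 reads at 25 °C and 47.9 at 11 °C. The authors' deposited table lists it with a fold change of 1.23 and an FDR of 2.04e-05. The peak shared by tRNA:Phe-GAA-1-8 and tRNA:Val-AAC-1-1 within the sulfatase gene Sulf1 (3R, 16321209 to 16321609) held 73.5 and 26.6 reads, with an FDR of 0.00281 in the authors' deposited table. Both peaks thus had few reads at 11 °C, where the median tRNA peak had 219. The peak of the lysine genes tRNA:Lys-CTT-1-7 and tRNA:Lys-CTT-1-8 held 126 reads at 25 °C and 46.0 at 11 °C (authors' deposited table, FDR 1.39e-06). Its midpoint lies 215 bp from the nearer gene, and neither gene overlaps the peak. At tRNA:Gln-TTG-2-1, a glutamine tRNA gene on X that is the only copy of its isodecoder, there were 108 and 42.7 reads (authors' deposited table, FDR 2.78e-09). That gene lies 278 bp from the midpoint of its peak, outside the peak itself. The glutamate genes tRNA:Glu-CTC-3-4 and tRNA:Glu-CTC-3-5 shared the weakest called tRNA peak, with 19.7 reads at 25 °C and 8.002 at 11 °C. Differences of at least 2-fold were also seen at the serine genes tRNA:Ser-AGA-2-1 and tRNA:Ser-AGA-3-1 (1.13), the elongator methionine gene tRNA:Met-CAT-1-4 (1.12) and the isoleucine gene tRNA:Ile-AAT-1-9 (1.11 on the log2 scale).

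The other peaks called at 25 °C lay between 0.25 and 0.99 on the log2 scale. Among glycine genes these were tRNA:Gly-GCC-1-11 inside CG11044, with 59.9 reads at 25 °C and 30.2 at 11 °C, and tRNA:Gly-GCC-1-2, with 308 and 232. Aspartate tRNA had 5 such peaks, none with an end of another gene within 500 bp. The largest, with 167 reads at 25 °C and 99.6 at 11 °C, served tRNA:Asp-GTC-3-1 and tRNA:Asp-GTC-1-12. On 2L, tRNA:Asp-GTC-1-7 had 100.1 and 63.4 reads, and the peak of tRNA:Asp-GTC-1-8 and tRNA:Asp-GTC-1-9 nearby had 266 and 191. The peak of tRNA:Asp-GTC-1-6 within the semaphorin gene Sema1a was strong, with 497 and 395 reads. In tkv, a BMP receptor gene, tRNA:Asp-GTC-2-1 and tRNA:Asp-GTC-1-1 shared 230.2 and 182 reads. All of these aspartate copies read the same codons, and their differences ran from 0.33 to 0.75.

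Proline tRNA genes gave 4 called peaks under 3 anticodons. tRNA:Pro-CGG-2-2 had 82.7 reads at 25 °C and 47.1 at 11 °C, but lies 309 bp from its peak's midpoint, with an end of CG6479 at 338 bp. Its sister copy tRNA:Pro-CGG-2-1 on X, within the gene Bx, had 328 and 255. tRNA:Pro-AGG-1-1 had 131 and 82.1 reads, and tRNA:Pro-TGG-1-5, within the piRNA pathway gene qin, had 306 and 194. Threonine also gave 4, of which tRNA:Thr-TGT-2-3 had 234 and 139 reads. For tRNA:Thr-AGT-1-1, within the nuclear receptor coactivator gene tai, the values were 147 and 109.7, and for tRNA:Thr-AGT-1-4 280.3 and 236, the smallest called difference (0.25). The threonine peak of tRNA:Thr-AGT-1-5 is described with its cluster.

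The remaining calls were spread over many amino acids. For isoleucine, tRNA:Ile-AAT-1-2 had 197 reads at 25 °C and 122 at 11 °C, with an end of lncRNA:CR44068 at 195 bp from the midpoint. For valine, tRNA:Val-AAC-2-4 had 284 and 181, so the valine calls covered both of its anticodons with peaks. The lysine gene tRNA:Lys-TTT-1-1, within the kinase gene Btk, had 129 and 86.7 reads, and the asparagine gene tRNA:Asn-GTT-1-9, within the transcription factor gene bs, 262 and 193. These single peaks had their tRNA gene within 11 bp of the midpoint. Leucine was called at anticodon CAG alone, with 568 and 418 reads over tRNA:Leu-CAG-1-2, tRNA:Leu-CAG-1-3 and tRNA:Leu-CAG-1-4, the most reads of any called peak, and 220.3 and 175 at tRNA:Leu-CAG-1-1. Alanine was called at tRNA:Ala-AGC-2-1 within nmo, with 376 and 279.6 reads, and at tRNA:Ala-AGC-2-11, with 325 and 273. The glutamine gene tRNA:Gln-CTG-2-4 had 282 and 219.5 reads, but lies 391 bp from its peak's midpoint, with an end of CG4238 at 396 bp. For tyrosine the call was at tRNA:Tyr-GTA-1-2 (284 and 156 reads), and the glutamate, arginine and asparagine calls not named here lie in the clusters described below.

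The other direction was rare and small. tRNA:Gly-TCC-2-2, a glycine gene that lies outside any longer gene and 9739 bp from the nearest end of another gene (CG4372), had 119 reads at 25 °C and 171 at 11 °C. Its log2 difference of -0.52 was the lowest of all tRNA peaks, and the authors' deposited table gives a fold change of -0.41 with an FDR of 0.00781. The sister copy tRNA:Gly-TCC-2-1 had a weak peak that lay on the other side of 0, with 12.03 and 9.69 reads, a log2 difference of 0.31 and an FDR of 0.508 in the authors' deposited table. After tRNA:Gly-TCC-2-2 the lowest log2 differences were -0.32 at tRNA:Leu-TAA-4-1, -0.27 at tRNA:Trp-CCA-2-1, -0.15 at tRNA:Ser-AGA-2-4 and -0.15 at tRNA:Ser-AGA-2-5. None of those 4 was called by the authors' DiffBind test; across all tRNA peaks 3 had an unadjusted p under 0.05 towards 11 °C and 50 towards 25 °C.

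Peaks were found for every amino acid class, the initiator methionine and selenocysteine tRNAs included. Of the 45 anticodons 44 had a peak, the exception being the valine anticodon TAC with its 2 genes, and of the 89 isodecoders 63 had one. The share of genes with a peak was high for aspartate (13 of 14), asparagine (9 of 10) and phenylalanine (7 of 8), and low for arginine (10 of 26), initiator methionine (2 of 6) and tyrosine (4 of 10). Genes without a peak were not all far from open chromatin. Of the 120, 33 had a peak midpoint within 1000 bp, and their median distance to the nearest was 2192.5 bp.

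The medians of the amino acid classes differed, and within many classes the peaks were spread widely. By anticodon, the standard deviation within groups was 0.45, against 0.44 over the same peaks with the anticodon ignored. Whether the classes differ beyond the spread of their peaks was not tested. Of all peaks 12.2% were called at 25 °C. A peak that reached genes of 2 amino acids, as 16 did, was counted under both. Valine had the highest median log2 difference of the classes with several peaks, 0.65 over 7 peaks that ranged from 0.02 to 1.67, 4 of them called at 25 °C. Aspartate followed with 0.41 (8 peaks, 5 called at 25 °C), isoleucine with 0.40 (6 peaks, 3 called), asparagine with 0.38 (5 peaks, 4 called) and lysine with 0.35 (8 peaks, 4 called). The largest valine values, 1.67, 1.51 and 1.47, were at peaks centred 170, 402 and 281 bp from the valine gene. The first 2 had an end of mir-4950 or Naam within 500 bp, and the third is centred in a phenylalanine gene. Glycine, with a median of 0.24 over 12 peaks, held 3 peaks called at 25 °C and the single one at 11 °C. Leucine, also with 12 peaks, had a median of 0.13 and 2 calls.

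At the lower end stood tryptophan, serine, histidine, cysteine and the initiator. The 5 tryptophan peaks ranged from -0.27 to 0.16 around a median of 0.02, and the 8 serine peaks from -0.15 to 1.13 around 0.03, with the X-linked tRNA:Ser-AGA-2-1 peak the only one called. No peak of tryptophan, histidine, cysteine or initiator methionine was called by the authors' DiffBind test, and of those 10 peaks 1, a tryptophan peak, had an unadjusted p under 0.05, towards 11 °C. The initiator tRNA, which starts every protein, had a single peak at tRNA:iMet-CAT-1-4 and tRNA:iMet-CAT-1-5 within the gene ome. It was among the strong tRNA peaks and nearly equal at both temperatures, with 525 reads at 25 °C and 539.7 at 11 °C (FDR 0.816 in the authors' deposited table). The only selenocysteine gene, tRNA:SeC-TCA-1-1, which serves the incorporation of selenocysteine at stop codons, had 221 reads at 25 °C and 178 at 11 °C. Its FDR of 0.0629 in the authors' deposited table was just past the threshold.

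**Figure D2:**
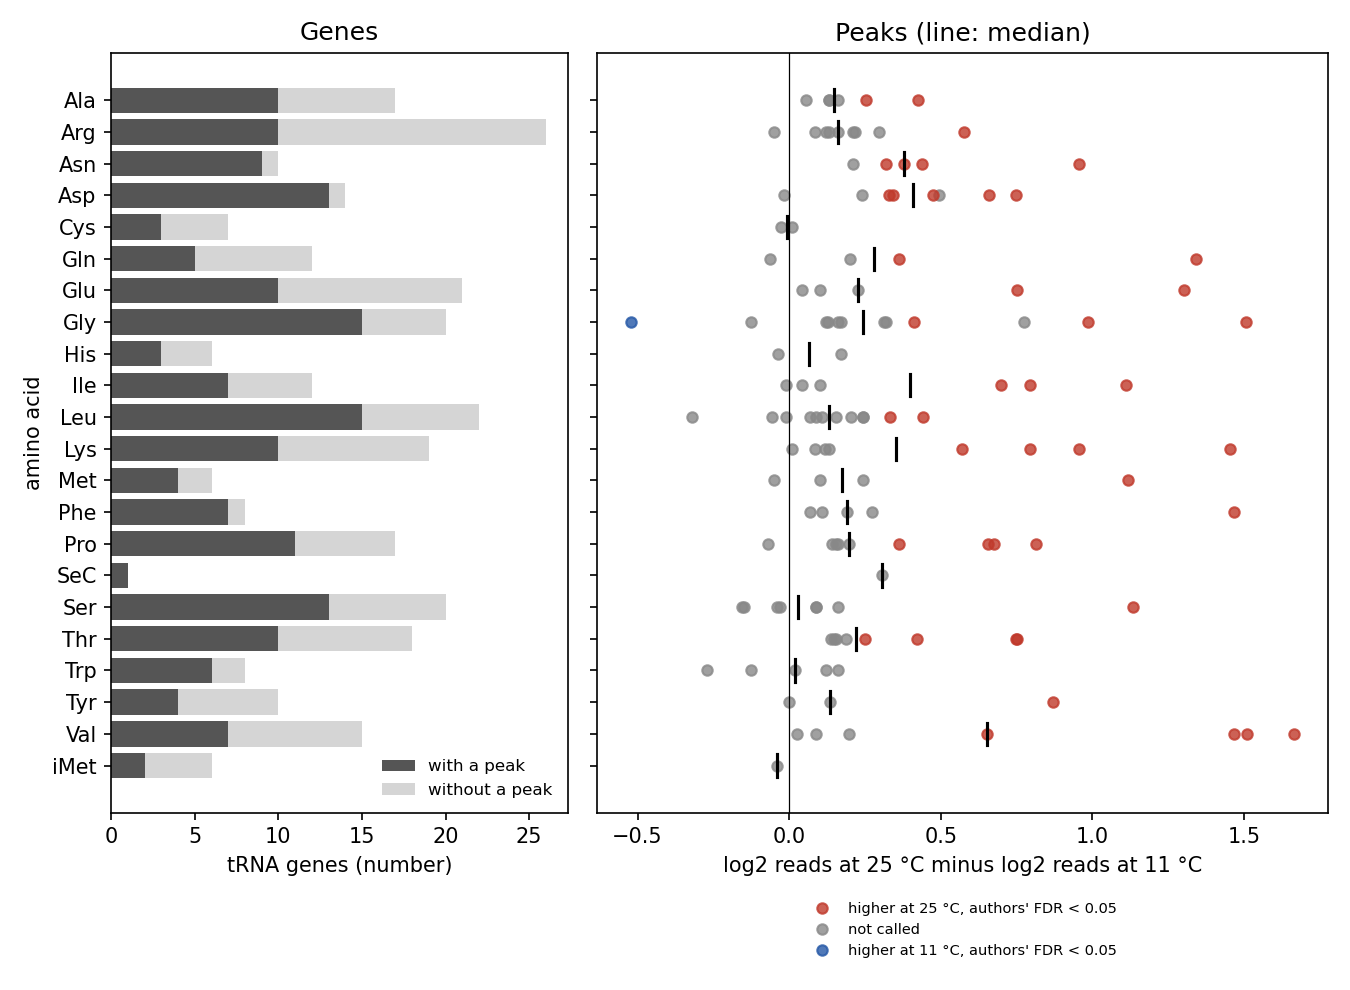
Left, number of tRNA genes of each amino acid class with a peak (dark) and without (light). Right, the difference of log2 mean normalised reads, 25 °C minus 11 °C, of each peak. Points are coloured by the authors' call, and a line marks the class median. Valine has the highest median of the classes with several peaks, 0.65, with its largest values at peaks centred 170 to 402 bp from the valine gene. The 5 tryptophan peaks lie around 0.02.

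Anticodons with at least 4 peaks ranged in median from -0.03 (Ser-AGA) to 0.85 (Val-CAC, 4 peaks). Between these lay Ile-AAT with 0.70 (5 peaks), Asp-GTC with 0.41 (8), Asn-GTT with 0.38 (5), Gly-GCC with 0.32 (9), Thr-AGT with 0.25 (5), Glu-CTC with 0.23 (5), Arg-ACG with 0.21 (5) and Ala-AGC with 0.21 (4). Lower medians were those of Phe-GAA with 0.19 (5 peaks), Met-CAT with 0.17 (4), Lys-CTT with 0.13 (7) and Trp-CCA with 0.02 (5). The lowest of all anticodon medians, -0.05, was that of Arg-TCT with its single peak. The largest Val-CAC values, 1.67 and 1.51, were at peaks centred 170 and 402 bp from the tRNA gene. With each peak under its nearest tRNA gene, the standard deviation (SD) of the log2 difference within anticodons was 0.45, over 99 peaks of 28 anticodons, and the SD over those same peaks with the anticodon ignored was 0.44.

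Copies with the same mature sequence also differed among themselves. In the 26 isodecoders with several peaks the SD within isodecoders was 0.44, against 0.45 over their 85 peaks together. Phe-GAA-1 had 5 peaks, of which 4 lay between 0.07 and 0.27 and that within Sulf1 at 1.47. Lys-CTT-1 lay at 7 peaks, 4 of them between 0.01 and 0.13, 2 called ones shared with asparagine and isoleucine genes at 0.96 and 0.79, and that of tRNA:Lys-CTT-1-8 at 1.45. In Gly-GCC-1 the 7 peaks with it as the nearest gene were spread from 0.13 to 1.51, 3 of them called at 25 °C. The 5 peaks of Asn-GTT-1 were all above 0, from 0.21 to 0.96, and 4 were called, while the 4 of Trp-CCA-2 lay on both sides of 0. Reads from inside identical gene copies cannot be told apart by sequence, and how multiply mapped reads were treated is not stated in the labels or the table. Where a tRNA gene overlaps its peak it fills a small part, and the rest is flank. Of the 175 genes with a peak, 127 overlap a peak, and the others lie beside it.

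**Figure D3:**
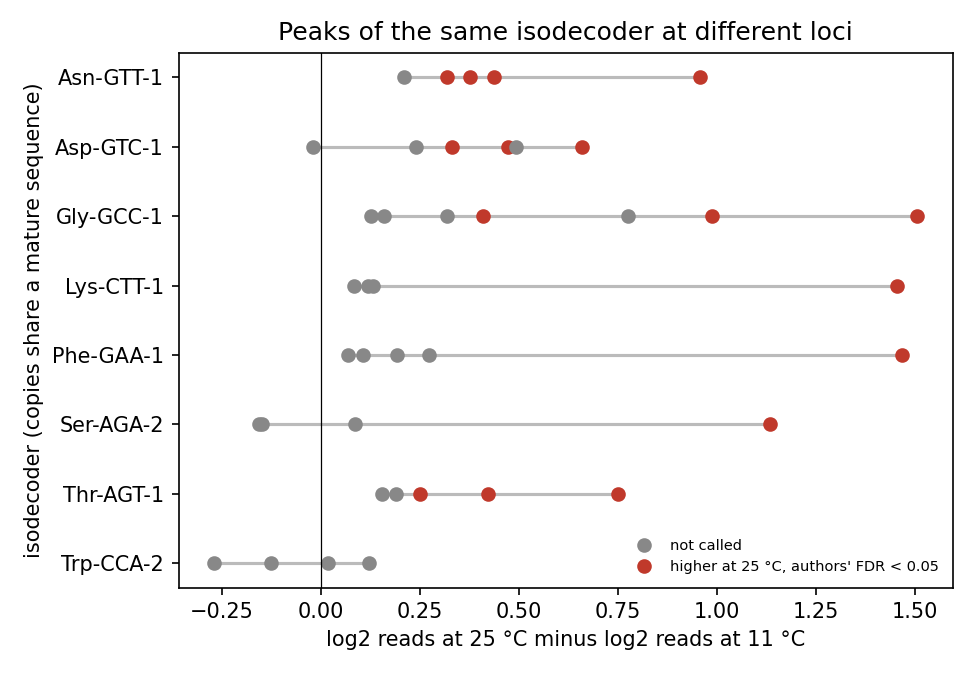
Difference of log2 mean normalised reads, 25 °C minus 11 °C (horizontal axis), for each peak of the 8 isodecoders with at least 4 peaks (vertical axis), coloured by the authors' call; each peak is under its nearest tRNA gene. In Phe-GAA-1 and Ser-AGA-2 a single called peak, at 1.47 and 1.13, lies far from the others; 2 further called peaks of Lys-CTT-1 are nearest to other tRNA genes and are not drawn in its line.

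The share of peaks called at 25 °C was highest, 51.9%, for isodecoders of 10 or more copies, against 12.2% of all peaks. Over the 4 classes of copy number the share was not strictly ordered, while the median difference was higher with more copies. Of the 27 peaks whose nearest gene belongs to an isodecoder of 10 or more copies, 26 had a difference above 0, and 14 were called at 25 °C, with a median of 0.33. For 5 to 9 copies the median was 0.18 (46 peaks, 20 called), for 2 to 4 copies 0.15 (24 peaks, 3 called) and for single-copy isodecoders 0.10 (17 peaks, 4 called). Single-copy minus multi-copy isodecoders gave a gap of -0.10 between medians, which turned to 0.11 with copies counted by anticodon, where selenocysteine is the only single-copy class. The median read level did not follow the same order: 262 reads for 10 or more copies, 232 for 5 to 9, 316 for 2 to 4 and 202 for single copies.

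Nested tRNA genes, which lie wholly inside a longer gene, made up 138 of the 295. Of these 84 had a peak, and of the 157 others 91. Among the 56 peaks whose nearest tRNA gene is nested, 26 were called at 25 °C and the median log2 difference was 0.25, and among the other 58 it was 15 and 0.16. Of all peaks 12.2% were called at 25 °C, and for the counts here and below nothing is read from the shares. The end of another gene lay within 500 bp of the midpoint in 40 tRNA peaks, 9 of them called at 25 °C, with a median of 0.15. In the 74 tRNA peaks without such an end 32 were called at 25 °C, with a median of 0.25. Of those 74, 45 lay inside a gene and 22 of the 45 were called at 25 °C (48.9%), with a median of 0.29; the 2609 other peaks inside genes and away from gene ends had a median of 0 and 18.4% called at 25 °C. The 29 tRNA peaks between genes had a median of 0.23, and 383 other intergenic peaks a median of 0.02.

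The peaks were centred beside the tRNA gene more often than on it. The midpoint lay inside a tRNA gene in 21 of the 114 peaks, 1 to 100 bp outside it in 75, and farther away in 18. In 44 peaks it lay 40 to 80 bp outside, and the median distance was 48.5 bp. The gene table has no strand, so upstream and downstream sides were not separated. The 21 centred peaks had a median log2 difference of 0.31 and the 11 peaks over 250 bp away 0.09. The far peaks ranged from -0.32 (tRNA:Leu-TAA-4-1) to 1.51 (tRNA:Val-CAC-2-5). Those of tRNA:Val-CAC-2-5, tRNA:Gln-TTG-2-1, tRNA:Pro-CGG-2-2 and tRNA:Gln-CTG-2-4 were called at 25 °C, and the others were not called. At the edge of the window, tRNA:Leu-TAA-2-1 at 464 bp was the last peak inside, with a log2 difference of 0.09, and tRNA:Leu-CAG-1-7 at 504 bp the first outside, with 0.43. The authors' deposited table gives the latter an FDR of 0.0342, under the threshold. Farther out lay tRNA:Ile-AAT-1-8 at 587 bp with 0.24 (FDR 0.133) and tRNA:Leu-AAG-1-4 at 655 bp with 1.13 (FDR 0.0105), so calls at leucine depend on the window.

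Weak tRNA peaks had the largest median difference. The median tRNA peak held 247 normalised reads and the median of all peaks 163, and 54 of the 114 were in the highest of 4 equal classes of all peaks by read level, above 257 reads. In that class the median log2 difference of tRNA peaks was 0.13 with 8 called at 25 °C, and that of the 1964 other peaks -0.10 with 70 called. In the class from 163 to 257 reads tRNA peaks had a median of 0.32 (14 of 25 called at 25 °C) and other peaks -0.04 (146 of 1992). The class from 97.4 to 163 reads gave 0.37 (8 of 18) and 0.003 (246 of 1999), and the lowest 0.81 (11 of 17) and 0.12 (478 of 2000). So the median was higher at tRNA peaks in each class, and in both sets it was largest among weak peaks. The Spearman correlation of read level and difference was -0.49 over the 114 tRNA peaks and -0.28 over the other peaks, 2 measures that share the same read numbers. The SD of log2 reads over tRNA peaks was 1.04 at 25 °C and 1.25 at 11 °C, and over all peaks 1.12 and 1.21.

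**Figure D4:**
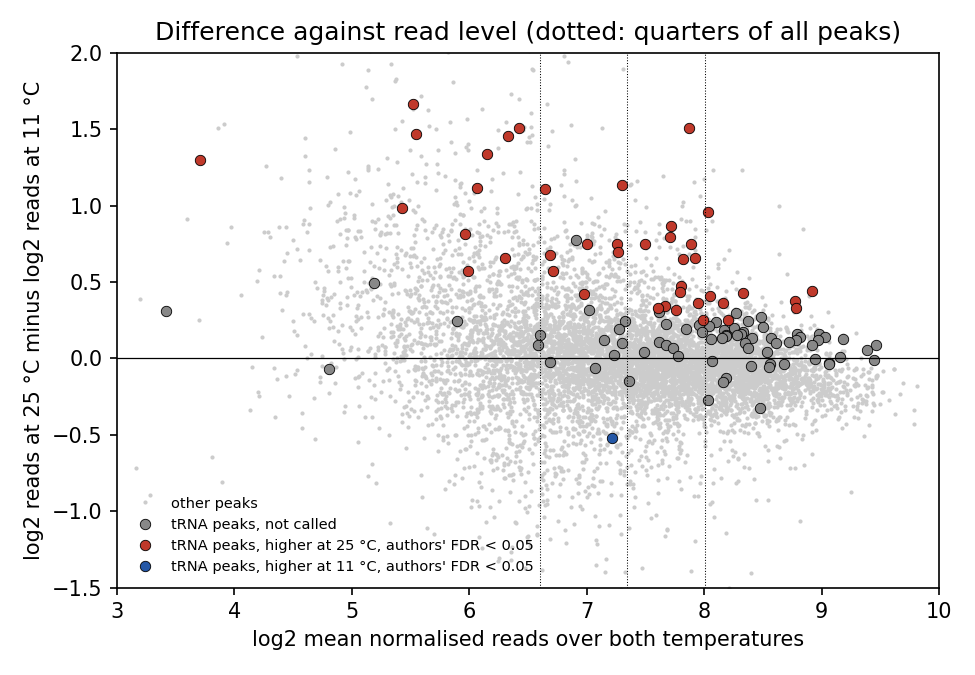
Difference of log2 mean normalised reads, 25 °C minus 11 °C (vertical axis), against log2 mean normalised reads over both temperatures (horizontal axis), for tRNA peaks (large points, by the authors' call) and other peaks (small grey points, some outside the plotted range); dotted lines part all peaks into 4 equal classes by read level. Most tRNA points in each class lie above 0, and the medians of tRNA peaks are 0.81 in the lowest class and 0.13 in the highest.

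The strongest tRNA peaks were nearly equal at both temperatures. At tRNA:Ser-CGA-1-4 and tRNA:Val-AAC-2-1, within the adducin gene hts, there were 731 reads at 25 °C and 687 at 11 °C. The peak of tRNA:Leu-CAA-2-1, tRNA:Ile-AAT-1-4 and tRNA:Ile-AAT-1-5 held 694 and 699 reads, and that of tRNA:Ala-TGC-1-1 and tRNA:Ala-TGC-2-1 685 and 659. The alanine peak of tRNA:Ala-CGC-1-2 and tRNA:Ala-CGC-1-3 had 610.02 and 557 reads. A peak over 2 cysteine and 2 lysine genes within the chitinase gene Cht7, among them tRNA:Cys-GCA-1-2 and tRNA:Lys-CTT-1-12, had 571 and 568. None of these 5 had a log2 difference over 0.13 or a call.

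Loci in one cluster did not move as a block. The largest cluster, of 8 peaks and 16 tRNA genes for lysine, arginine, asparagine and isoleucine, spans 48.3 kb of chromosome arm 2R in and beside EcR, the ecdysone receptor gene. All 8 peaks had more reads at 25 °C, and 5 were called. The called ones are nearest to tRNA:Asn-GTT-1-3, tRNA:Asn-GTT-1-6, tRNA:Ile-AAT-1-1, tRNA:Arg-ACG-1-5 and tRNA:Asn-GTT-1-8. From the first peak, at tRNA:Lys-CTT-1-1, the log2 differences were 0.09, 0.32, 0.96, 0.79, 0.22, 0.13, 0.58 and 0.38 along the arm. The largest was at tRNA:Asn-GTT-1-6 and 3 neighbouring genes inside EcR, with 363 reads at 25 °C and 187 at 11 °C (authors' deposited table, FDR 7.23e-11), and the next at tRNA:Ile-AAT-1-1, with 275 and 159 reads. The first peak, also inside EcR and 20.2 kb from the largest, had 499.9 and 471 reads. Of the 4 tRNA peaks within EcR 3 were called at 25 °C, where 12.2% of all peaks were.

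**Figure D5:**
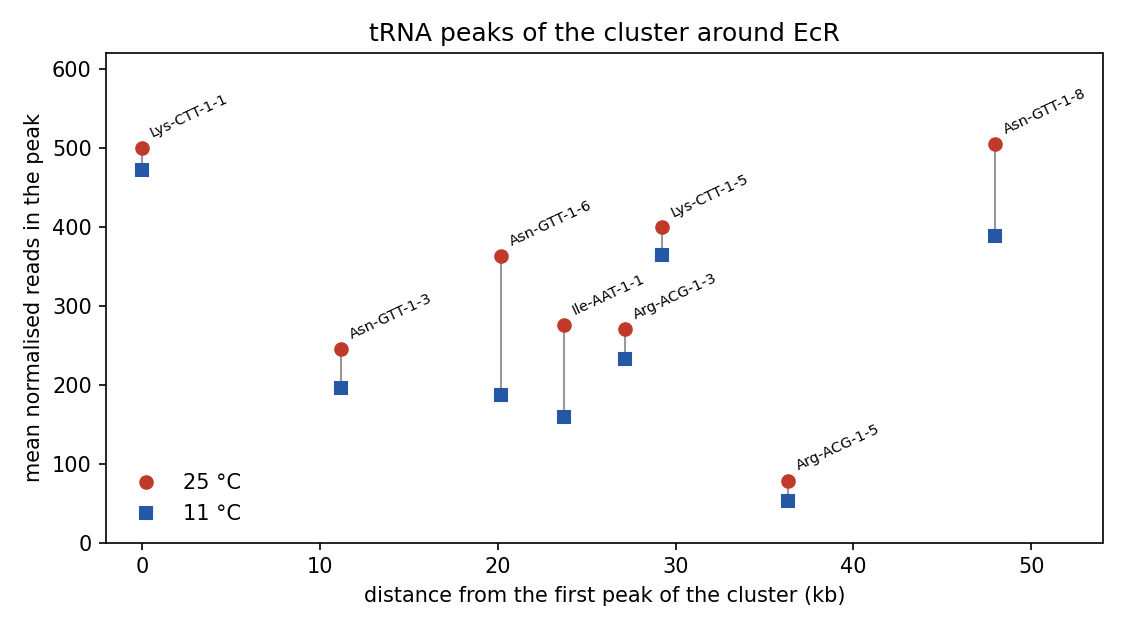
Mean normalised reads (vertical axis) at 25 °C (red circles) and 11 °C (blue squares) in the 8 tRNA peaks of the cluster around EcR, by distance from its first peak (horizontal axis, kb), each named by its nearest tRNA gene. The gap between temperatures is widest at Asn-GTT-1-6, 363 against 187 reads, and narrow at Lys-CTT-1-1.

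In 4 further clusters, 3 or 4 tRNA peaks lay less than 25 kb apart. On 3L, within the phosphatase gene Ptp61F, the glutamate peaks of isodecoder Glu-CTC-3 had log2 differences of 0.04, 1.30 and 0.75, so neighbours with the same mature sequence stood far apart. The peak at 1.30 was called, and so was that at 0.75, of tRNA:Glu-CTC-3-8 and tRNA:Glu-CTC-3-9. An end of CG32320 lies 150 bp from the midpoint of the latter peak. On 2L, a proline and 2 glycine peaks in 35.2 kb had 0.68, 0.77 and 1.51. The middle one, at tRNA:Gly-GCC-1-5, was not called: the authors' deposited table gives it a fitted fold change of 0.30 (FDR 0.124), far below the difference of its means. On 3R, 3 of 4 peaks at alanine, valine, proline and threonine genes lay between 0.13 and 0.20, and the fourth, at tRNA:Thr-AGT-1-5 and tRNA:Thr-AGT-1-6, was at 0.75 with 308 and 183 reads. The tryptophan and glycine cluster on 2R ranged from -0.12 to 0.16 with no call.

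The genes that make and use tRNAs had few called peaks. Of 27 peaks at 20 genes of RNA polymerase III and its factors, 1 was called higher at 25 °C, at Polr3D, a polymerase subunit gene (145 and 106 reads). Another was called higher at 11 °C, at Myc, a transcription factor that drives growth (167 and 209 reads), where the 3 other Myc peaks had more reads at 25 °C without a call (log2 differences of 0.17 to 0.30), and the list's median log2 difference was 0.01. Among 34 peaks at 26 genes of tRNA processing and modification, 1 was called, at Tsen54 (159 reads at 25 °C and 120 at 11 °C), and the median was 0.01. Tsen54 encodes a subunit of the endonuclease that removes tRNA introns, and its other peak had a log2 difference of -0.07 without a call. None of the 20 peaks at 17 cytosolic aminoacyl-tRNA synthetase genes, whose enzymes load tRNAs with their amino acids, was called by the authors' DiffBind test, and none had an unadjusted p under 0.05; their median was -0.01. Beside all peaks, with a median of -0.02 and 12.2% called at 25 °C, these lists had medians near 0 and smaller shares called; whether they differ from the tRNA peaks was not tested.

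Other genes read by RNA polymerase III gave only 3 peaks for 4 of 110 genes, most of the 110 being copies of the repeated 5S rRNA gene without a peak. At snRNA:7SKa, a regulator of transcription elongation, there were 763 reads at 25 °C and 800.3 at 11 °C, at RNaseMRP:RNA 262 and 276, and at snRNA:U6:96Ab and snRNA:U6:96Ac, spliceosome genes, 311 and 270. The log2 differences of -0.07, -0.07 and 0.20 lay within the range of uncalled tRNA peaks, and no call or unadjusted p under 0.05 was among them. The promoters of these small RNA genes lie upstream of the gene, unlike those of tRNA genes.

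Markers of the fat body had peaks, and so had markers of other tissues. Of 11 fat body markers 9 had a peak, Fbp1 and Fbp2 being without. The 27 peaks of these 9 summed to 7205 normalised reads at 25 °C and 5227 at 11 °C. Of the 27, 8 were called at 25 °C (29.6%, against 12.2% of all peaks). Of these calls 6 were at apolpp, the lipophorin precursor gene, and the others at the yolk protein genes Yp1 and Yp3. No peak of Yp2, FASN1, Lpin, bmm, Lsd-1 or Lsp2 was called. The Yp2 and FASN1 peaks all had more reads at 25 °C, with log2 differences up to 1.23 (Yp2) and 0.79 (FASN1). All 4 oenocyte markers had peaks, with sums of 1597 and 1444 reads and 3 of 7 peaks (42.9%) called at 25 °C. For 2 of 8 muscle markers the sums were 227 and 224 reads, for 1 of 5 hemocyte markers 369 and 380.5, and for 2 of 3 neuron markers 718.03 and 805. Single peaks among them were called, at Mhc of muscle (52.6 and 22.0 reads) and crq of hemocytes (59.9 and 40.7) towards 25 °C and at elav of neurons (243 and 314) towards 11 °C. None of 3 follicle cell markers had a peak. Their part in the tRNA result was not tested.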

How the data were processed

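A single table was analysed, the authors' deposited DiffBind result for temperature on dm6. It lists 8069 peaks. Per the file headers each has a log2 mean of normalised reads, over the libraries used and per temperature, a fitted log2 fold change, a p-value and an FDR, all made by the authors. The tools named in the submitters' processing notes include Bowtie2, MACS2 and DiffBind; versions, the treatment of duplicate and multiply mapped reads and the scaling are not given in the sources used here. A scaling that shifted all peaks would shift every difference alike.

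From the table, the 25 °C minus the 11 °C log2 concentration was taken (Python 3.11.15, pandas 2.3.3). Fitted fold changes are mostly smaller than these differences. Peaks were called at an FDR under 0.05 by the sign of the fold change. Gene positions came from RefSeq (assembly Release 6 plus ISO1 MT, the basis of dm6) without strand or sequence, so no sequence is shown. Classes by copy number and nesting use the tRNA gene nearest the midpoint. Clusters join tRNA peaks under 25 kb apart. The members and lists were chosen with earlier results of these data known. Of 78 list entries for RNA polymerase III, processing and synthetases, 71 matched a gene. Named are the nearest tRNA genes of all called tRNA peaks, the 5 extremes at each end and the 5 strongest peaks. Also named are the initiator and selenocysteine genes, anticodons with 4 or more peaks or the highest or lowest median, and called genes of the other lists. Others were chosen after their values were seen. The assignment of peaks was tested on simulated data against a direct search.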

Additional observations from a re-analysis of the deposited data

How the results depend on the processing

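The number of genes with a peak (175), of peaks called at 25 °C (41) and at 11 °C (1) stayed within 1.5 times under windows of 250 and 1000 bp, peaks that overlap the gene, and, for calls, FDR thresholds of 0.01 and 0.1 or peaks away from other gene ends. With midpoints inside the gene only, 21 genes had a peak, 10 peaks were called at 25 °C and 0 at 11 °C (DiffBind; unadjusted p under 0.05 in 12 and 0), and the median difference was 0.31 in place of 0.20; fewer peaks enter, and the cause of the higher median was not tested. The authors' fitted fold changes gave a median of 0.12; the cause was not tested. Under every other planned setting the median was between 0.16 and 0.26. The median of single-copy minus multi-copy isodecoders, -0.10, became 0.11 with copies counted by anticodon, where the single selenocysteine peak makes up the first class. Nested minus other peaks gave 0.09, and 0.07 away from other gene ends, a setting chosen after seeing the data. No paired analysis was possible because values per library are not in the table, and for the same reason no library could be left out. Depth is unknown.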

Other observations

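A few further features of tRNA genes were read from the annotation. Genes annotated at over 90 bp, 16 in all, code for Ile-TAT, Leu-CAA and Tyr-GTA, the tRNAs whose fly genes carry introns. Of these 7 had a peak, and the 6 peaks had a median log2 difference, 25 °C minus 11 °C, of 0.02, against 0.21 over the 108 peaks nearest to shorter genes. Only that of tRNA:Tyr-GTA-1-2 was called, with 284 reads at 25 °C and 156 at 11 °C, and it lies 411 bp from an end of dpp, a BMP ligand gene. The peaks of the other genes over 90 bp all lay in the highest class of read level, where tRNA peaks had their smallest median difference. The part of read level in the gap was not tested. Peaks of 2 tRNA pseudogenes, tRNA:Ile-AAT-2-1Psi and tRNA:His-GTG-2-1Psi, had differences of 0.10 and 0.17 with no call, the latter shared with an intact histidine gene.

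By the first base of the anticodon, which pairs with the wobble base of the codon, the medians were 0.27 for G (35 peaks, 14 called at 25 °C), 0.20 for A (32, 13 called), 0.17 for T (24, 4 called) and 0.13 for C (40, 13 called), with peaks of several anticodons counted under each. Among chromosome arms the median was 0.34 on 2L (21 peaks, 11 called), 0.26 on X (6, 3 called), 0.20 on 3R (27, 8 called), 0.19 on 3L (20, 7 called) and 0.15 on 2R (40, 12 called). Of all peaks 12.2% were called at 25 °C. Shares for all peaks of each arm are not given here, so these counts say nothing of tRNA genes against their arm. Genes with another tRNA gene within 2000 bp had peaks with more reads, a median of 307 against 178, and a smaller median difference, 0.16 against 0.28.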
